A study of Rattus norvegicus with 9 samples.

Results

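The 9 genes of lung surfactant described here were followed through 9 fetal rat lungs. They were taken by name, with earlier results of these data known, and no value entered the rule: the surfactant proteins Sftpa1, Sftpb, Sftpc and Sftpd, the proteases Ctsh and Napsa, and Lamp3, Lpcat1 and Slc34a2, which serve the storage, lipid synthesis and phosphate handling of surfactant. All 9 members were found by NCBI Gene ID among the 17465 genes of the deposited table, and all 9 were among the 12966 genes that passed the filter on low counts.

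Surfactant is the film of phospholipid and protein that keeps air spaces from collapsing at birth. It is made by alveolar type II cells, packed into lamellar bodies and released into the air space, and its genes become active late in fetal life as the distal epithelium matures. The hydrophobic proteins SP-B and SP-C spread the lipid film, while SP-A and SP-D are collectins, proteins that bind sugars on microbes.

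All lungs were from Sprague-Dawley rats, and RNA was sequenced after depletion of ribosomal RNA. The 3 control lungs had no treatment. The 3 hypoplastic lungs were underdeveloped from oligohydramnios, a lack of amniotic fluid, and also had no treatment. The 3 treated lungs were hypoplastic lungs given AFSC-EVs, extracellular vesicles released by amniotic fluid stem cells. Of fetal age, vesicle dose and route, and litter nothing is stated in the sources used here, so the p-values measure the spread between these lungs, some of which may share a mother.

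Library totals ran from 56922779 to 88243188 estimated counts, and each member had between 2808 and 112533 estimated counts in every library, so counting error was small beside the spread between lungs. Levels are given as CPM, the count of a gene relative to the TMM-scaled size of its library. By Xist and 2 Y-linked genes, 2 of 3 control, 1 of 3 hypoplastic and 1 of 3 treated lungs were male. Control library 2 stood apart in these genes: among the controls, control library 1 was lowest and control library 2 highest for 9 of 9 members, and both were male. Over all 9 libraries, control library 2 had the highest level of 8 members. The median log2 fold changes of the members against control, and each member's between hypoplastic and control lungs, are therefore also given without it. Counts by unadjusted p, DESeq2 or overlap, correlations, coefficients of variation and related genes are given only with all 9 libraries.

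Hypoplastic lungs were compared with control lungs to see how the surfactant genes stood in the hypoplasia model. The mean of every member was lower in hypoplastic lungs, at 45.4 to 85.9% of the control mean, where 48.1% of all genes were lower. The median log2 fold change of the 9 was -0.84, against 0.01 over all genes tested. edgeR's quasi-likelihood test called 0 of 9 at an adjusted p under 0.05, where it called 0.00771% of all genes. The unadjusted p was under 0.05 for 7 of 9 members, all lower, against 5.69% of all genes lower. The libraries of the groups did not overlap for 6 of 9 members, all lower in hypoplastic lungs, where 9.05% of all genes were lower without overlap. DESeq2 called 4 of 9 (Sftpb, Sftpc, Slc34a2 and Ctsh), all lower, against 0.577% of all genes lower. With limma voom 0 of 9 members were called, and only 1 of all genes tested. These are levels in whole lung, where fewer type II cells and less RNA per cell cannot be told apart.

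Without control library 2 the median was -0.51, with 9 of 9 members still lower. The edgeR adjusted p of Sftpb, Sftpc, Lamp3, Slc34a2 and Ctsh was then 0.762 each, against 0.317 with all 9 libraries. DESeq2 was run only with all 9 libraries.

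**Figure D1:**
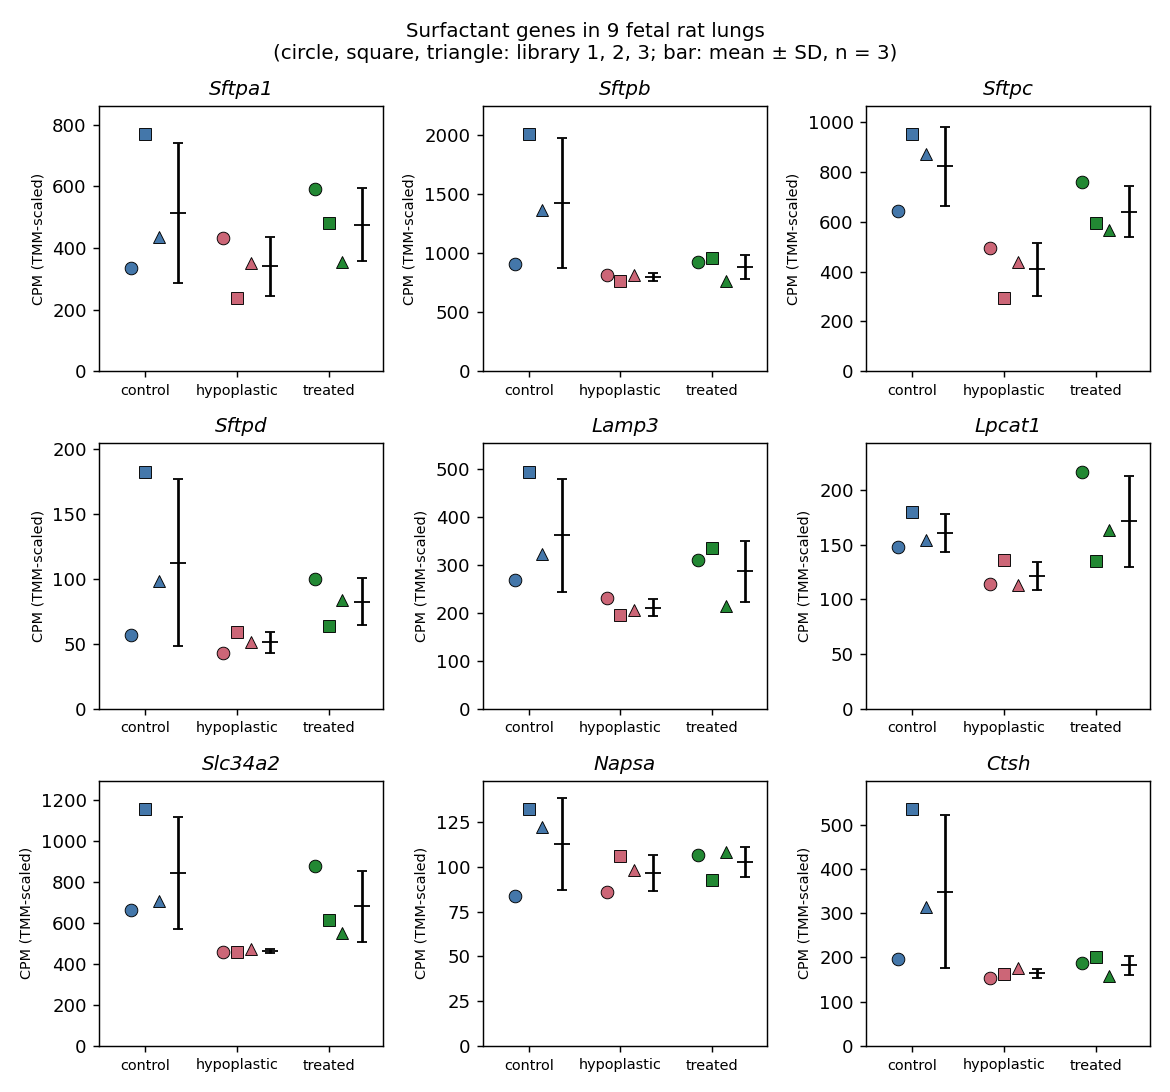
Level of each surfactant gene (y axis, CPM of the TMM-scaled library size, from 0) in the 3 control, 3 hypoplastic and 3 treated lungs, with symbols for libraries 1, 2 and 3 and bars for the mean and SD of 3 libraries. The control libraries are spread widely, with library 2 highest, while the hypoplastic libraries lie close together for Sftpb, Slc34a2 and Ctsh.

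Sftpc (Gene ID 50683) encodes SP-C, a small lipopeptide made only by type II cells in the mature lung. It was at 645, 951 and 873 CPM in the control libraries, at 496, 292 and 438 CPM in the hypoplastic libraries, and at 758, 595 and 567 CPM in the treated libraries. Every hypoplastic library lay below every control and every treated library, while treated and control libraries overlapped. Hypoplastic against control, the log2 fold change was -1.01 (SE 0.220, edgeR adjusted p 0.317), and over single libraries left out it ran from -1.17 to -0.82. It was -0.89 without control library 2. The DESeq2 adjusted p was 0.00332. Between treated and hypoplastic lungs the log2 fold change was 0.65 (SE 0.219, edgeR adjusted p 0.859).

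Sftpb (Gene ID 192155) encodes SP-B, without which lamellar bodies do not form and newborns cannot breathe. Its control libraries were at 908, 2007 and 1362 CPM, the hypoplastic ones at 817, 763 and 816 CPM, and the treated ones at 923, 958 and 765 CPM. Hypoplastic libraries lay below all controls, and the treated libraries overlapped the hypoplastic ones and only the lowest control. Its log2 fold change was -0.84 (SE 0.244, edgeR adjusted p 0.317) in hypoplastic against control lungs and -0.51 without control library 2. It was 0.14 (SE 0.243, edgeR adjusted p 0.962) in treated against hypoplastic lungs and -0.69 (SE 0.244, edgeR adjusted p 0.998) in treated against control lungs. Sftpb had a treated mean of 61.9% of control, beside 77.8% for Sftpc.

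Sftpa1 (Gene ID 24773) and Sftpd (Gene ID 25350) encode the collectins SP-A and SP-D. Sftpa1 was at 337, 769 and 434 CPM in control, 431, 239 and 350 CPM in hypoplastic, and 592, 481 and 354 CPM in treated libraries. The 3 groups overlapped in Sftpa1, and its change in hypoplastic lungs, -0.59 on the log2 scale (SE 0.323, edgeR adjusted p 0.478), was -0.18 without control library 2. Sftpd was at 56.9, 182 and 97.9 CPM in control, 42.8, 58.6 and 51.6 CPM in hypoplastic, and 99.6, 63.4 and 83.3 CPM in treated libraries. Its largest hypoplastic value passed the smallest control value, so those groups overlapped, while each treated library was above each hypoplastic one. Sftpd differed by -1.14 on the log2 scale between hypoplastic and control lungs (SE 0.357, edgeR adjusted p 0.323), or by -0.60 without control library 2. Treated against hypoplastic, it was 0.69 (SE 0.354, edgeR adjusted p 0.901).

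Sftpa1 and Sftpd lie on the same chromosome in the RefSeq annotation of GRCr8, with 1 protein-coding gene between them. That gene, Mbl1, a collectin made mainly in liver, was at 0.058 CPM in control, 0.231 CPM in hypoplastic and 0.161 CPM in treated lungs on average.

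Ctsh and Napsa encode proteases that cut the SP-B precursor. Ctsh (Gene ID 25425), cathepsin H, was at 195, 536 and 313 CPM in control, 154, 162 and 175 CPM in hypoplastic, and 186, 201 and 159 CPM in treated libraries. All hypoplastic libraries lay below all controls, and the treated libraries overlapped both groups but reached only the lowest control. Hypoplastic lungs differed from control by -1.09 on the log2 scale (SE 0.293, edgeR adjusted p 0.317, DESeq2 adjusted p 0.0228), or by -0.64 without control library 2. The log2 difference of Ctsh was 0.15 (SE 0.290, edgeR adjusted p 0.964) between treated and hypoplastic lungs and -0.93 (SE 0.292, edgeR adjusted p 0.998) between treated and control lungs, or -0.48 without control library 2. Napsa (Gene ID 60575), napsin A, was at 83.5, 132 and 123 CPM in control, 86.1, 106 and 98.3 CPM in hypoplastic, and 107, 92.8 and 108 CPM in treated libraries. Napsa overlapped between all groups and had the smallest log2 fold change of the 9 in hypoplastic against control lungs, -0.22 (SE 0.166, edgeR adjusted p 0.612). It came to -0.39 without control library 1 and to -0.09 without control library 2.

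Sftpb and its protease Ctsh followed each other most closely among the 36 pairs of members, with a Pearson's r of log2 CPM of 0.99 over the 9 libraries and 0.99 after group means were removed. The 36 values ran from 0.41 (Lpcat1 and Ctsh) to 0.99, with a median of 0.78. These r describe libraries that share depth and scaling. All include control library 2, which held the highest Sftpb (2007 CPM) and Ctsh (536 CPM) of the 9 libraries. Removing group means leaves the spread between controls in place, and no r was taken without that library. Set against Sftpb in the same library, with the control mean at 0, log2 Napsa was 0.37, 0.77 and 0.56 in hypoplastic and 0.50, 0.25 and 0.79 in treated libraries, all above the 0.17, -0.31 and 0.14 of control. Log2 Sftpc against Sftpb was 0.45, 0.05 and 0.31 in treated libraries, above the 0.02, -0.65 and -0.16 of hypoplastic libraries. Log2 Ctsh against Sftpb was -0.33, -0.16 and -0.14 in hypoplastic and -0.23, -0.17 and -0.19 in treated libraries. All lay below the -0.13, 0.18 and -0.04 of control. Slc34a2 against Sftpb was also higher in treated than in hypoplastic libraries without overlap, and Sftpa1 higher in treated than in control libraries. Sftpd, Lamp3 and Lpcat1 against Sftpb overlapped between all groups. These ratios were chosen after the values were seen and were not tested.

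The promoter windows of Sftpb and Ctsh, the most closely matched pair, and of Sftpa1, whose treated mean was 92.6% of control, are shown from the RefSeq table of GRCr8. Of the 9 members, 6 had an entry there, not Sftpc, Sftpd and Napsa. The printed windows were chosen by these values, and Lpcat1, with a treated mean of 107% of control, also had an entry. Each window holds 250 bases before and 50 bases after the start site, 5′ to 3′ on the strand of the gene (+ in each case). Capitals mark matches to CAAG, the core of sites of the lung and thyroid factor NKX2-1, TGTTTNC (forkhead factors) and TTNCNNAA (C/EBP factors), each on both strands, and TATAAA on the strand of the gene.
Sftpb, chr4:105917338-105917637: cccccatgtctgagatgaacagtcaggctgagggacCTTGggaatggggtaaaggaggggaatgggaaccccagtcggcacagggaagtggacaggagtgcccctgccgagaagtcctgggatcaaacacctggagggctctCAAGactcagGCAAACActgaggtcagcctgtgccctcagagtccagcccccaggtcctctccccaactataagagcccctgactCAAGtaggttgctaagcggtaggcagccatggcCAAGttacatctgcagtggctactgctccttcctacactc
Ctsh, chr8:99488506-99488805: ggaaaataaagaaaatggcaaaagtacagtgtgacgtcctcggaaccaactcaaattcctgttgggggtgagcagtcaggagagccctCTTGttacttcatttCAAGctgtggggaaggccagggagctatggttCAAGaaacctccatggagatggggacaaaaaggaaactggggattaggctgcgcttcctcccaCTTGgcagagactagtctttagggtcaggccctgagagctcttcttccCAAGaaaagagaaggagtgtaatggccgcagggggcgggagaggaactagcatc
Sftpa1, chr16:17042014-17042313: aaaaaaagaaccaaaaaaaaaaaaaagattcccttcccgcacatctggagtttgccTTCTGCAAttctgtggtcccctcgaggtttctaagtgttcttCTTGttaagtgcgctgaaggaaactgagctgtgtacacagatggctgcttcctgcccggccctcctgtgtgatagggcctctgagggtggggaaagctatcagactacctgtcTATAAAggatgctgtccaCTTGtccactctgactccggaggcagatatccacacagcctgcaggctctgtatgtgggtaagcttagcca

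CAAG was found 4 times in the Sftpb window, 5 times in that of Ctsh and 2 times in that of Sftpa1, where the median over all 33469 windows was 2 and 91.0% held at least 1 match. The other entries held 3 (Lamp3), 2 (Lpcat1) and 0 (Slc34a2). A match to TGTTTNC, present in 21.1% of all windows, lay at position -98 from the Sftpb start site and at -120 from that of Lamp3. TTNCNNAA, present in 41.3% of windows, matched in Sftpa1, Lamp3 and Slc34a2, and TATAAA, in 8.80%, matched only in Sftpa1 among the 6, at -39. No 2 matches in the printed windows overlapped. These are matches of letters, not measured binding.

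Among the genes of storage and lipid supply, Lamp3 (Gene ID 303801) encodes a membrane protein of lamellar bodies. It was at 268, 494 and 322 CPM in control, 230, 194 and 206 CPM in hypoplastic, and 309, 335 and 214 CPM in treated libraries. Hypoplastic libraries lay below all controls, and 2 of 3 treated libraries lay above all hypoplastic ones. Lamp3 differed by -0.78 on the log2 scale (SE 0.232, edgeR adjusted p 0.317) in hypoplastic against control lungs, -0.49 without control library 2, and 0.45 (SE 0.231, edgeR adjusted p 0.901) in treated against hypoplastic lungs.

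Slc34a2 (Gene ID 84395) encodes the sodium-phosphate cotransporter of the type II cell's apical membrane. Its hypoplastic libraries were nearly equal, at 460, 457 and 473 CPM (coefficient of variation 1.83%), beside 664, 1155 and 705 CPM in control (32.4%) and 876, 615 and 548 CPM in treated libraries (25.5%). All hypoplastic libraries lay below all others, and treated libraries overlapped control. Slc34a2 differed by -0.86 on the log2 scale (SE 0.233, edgeR adjusted p 0.317, DESeq2 adjusted p 0.0310) in hypoplastic lungs, or -0.56 without control library 2. Treated against hypoplastic, it was 0.55 (SE 0.232, edgeR adjusted p 0.895), or 0.33 without treated library 1. The coefficient of variation was lower in hypoplastic than in control lungs for 8 of 9 members and lower than in treated lungs for 6 of 9. Its median was 10.4% in hypoplastic, 32.7% in control and 22.1% in treated lungs, each from 3 libraries. No such count was made over all genes, so this is not shown to be particular to the members. The control values include library 2, at 1155 CPM for Slc34a2.

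Lpcat1 (Gene ID 361467) encodes the acyltransferase that makes the saturated phosphatidylcholine of surfactant. It was at 148, 181 and 154 CPM in control, 114, 136 and 114 CPM in hypoplastic, and 217, 135 and 163 CPM in treated libraries. Hypoplastic libraries lay below all controls, and treated library 2 lay just below the highest hypoplastic library. The log2 fold change of Lpcat1 was -0.41 (SE 0.170, edgeR adjusted p 0.383) in hypoplastic against control lungs, or -0.32 without control library 2. It was 0.50 (SE 0.170, edgeR adjusted p 0.859) in treated against hypoplastic lungs, or 0.30 without treated library 1. Its treated mean was 107% of the control mean. The other 8 members had treated means between those of hypoplastic and control lungs, a count that was not made over all genes. Against control, Lpcat1 turned from 0.10 to -0.11 on the log2 scale without treated library 1. Sftpa1 turned from -0.11 to 0.30 and Sftpd from -0.45 to 0.09 without control library 2, and Sftpa1 to 0.06 without treated library 3.

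**Figure D2:**
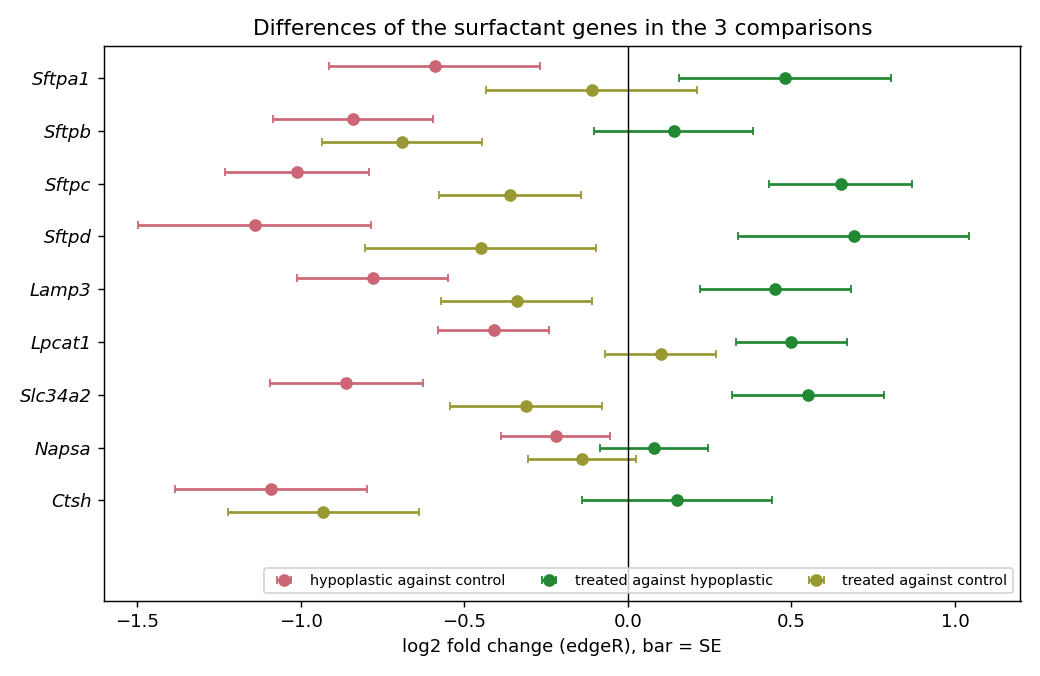
The log2 fold change of each surfactant gene (x axis, edgeR, bars are SE) in the 3 comparisons. Hypoplastic against control lies below 0 for all 9 genes, and in treated against hypoplastic Sftpb, Napsa and Ctsh lie nearest 0, at 0.14, 0.08 and 0.15.

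Treated lungs were compared with untreated hypoplastic lungs to see what differed with the vesicles. The treated mean was above the hypoplastic mean for 9 of 9 members, against 48.1% of all genes. Their median log2 fold change was 0.48, against -0.01 over all genes tested. edgeR called 0 of 9, as it called 0% of all genes, and 3 of 9 (Sftpc, Lpcat1 and Slc34a2) had an unadjusted p under 0.05, all higher, against 2% of all genes higher. Libraries did not overlap for 3 of 9 members (Sftpc, Sftpd and Slc34a2), all higher in treated lungs, against 5.07% of all genes. DESeq2 called 0 members, against 0.114% of all genes, and all 15 genes it called were lower in treated lungs. With limma voom 0 members and 0 of all genes tested were called. Without treated library 1 the median was 0.30. This comparison and that of hypoplastic with control lungs share the hypoplastic libraries, so a low value in those libraries enters both with opposite signs.

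Treated and control lungs were compared to see what still differed after treatment. Of the 9 members, 8 were lower in treated lungs, against 49.4% of all genes, with a median log2 fold change of -0.34 against 0.00 over all genes. edgeR called 0 of 9, as it called 0% of all genes. DESeq2 called 0 members, against 0.119% of all genes. With limma voom 0 members and 0 of all genes tested were called. Sftpb and Ctsh, 2 of 9, had an unadjusted p under 0.05, both lower, against 2.5% of all genes lower. No member's libraries were without overlap, where 5.02% of all genes were lower without overlap. Without control library 2 the median was -0.01, with 6 of 9 members lower, and without treated library 3 it was -0.18. The log2 fold changes of Sftpa1, Slc34a2, Lamp3 and Sftpd were then 0.30, -0.01, -0.04 and 0.09 without control library 2, while Sftpb stayed at -0.36 and Ctsh at -0.48.

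**Figure D3:**
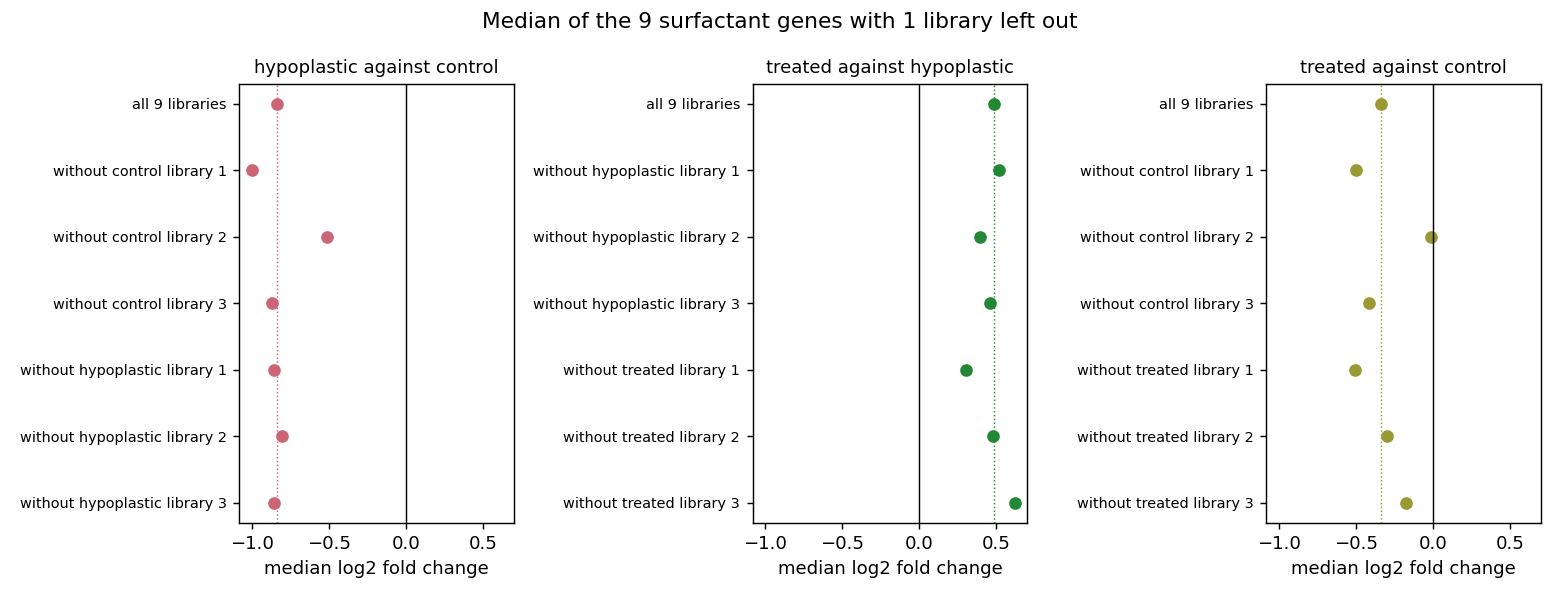
Median log2 fold change of the 9 surfactant genes (x axis) with all libraries and with each library of the 2 groups compared left out, for the 3 comparisons; the dotted line marks the value with all 9 libraries. The median moves most without control library 2, to -0.51 in hypoplastic against control and to -0.01 in treated against control.

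Genes that act with surfactant were read from lists by role. No gene of these 5 lists was called by edgeR in any comparison. Of 12 transcription factors of the distal epithelium, 4 were lower in hypoplastic lungs at an unadjusted p under 0.05, against 5.69% of all genes. Higher at such a p were 0 of 12, against 6.67% of all genes, and the median log2 fold change was -0.06. Nkx2-1, which drives the surfactant genes, was at 356, 442 and 359 CPM in control, 265, 334 and 300 CPM in hypoplastic, and 441, 352 and 394 CPM in treated libraries. Hypoplastic libraries lay below all others, with log2 fold changes of -0.36 (SE 0.136, edgeR adjusted p 0.360) from control and 0.40 (SE 0.136, edgeR adjusted p 0.859) in treated against hypoplastic lungs. Cebpa, a C/EBP factor, was at -0.62 (edgeR adjusted p 0.325) and the epithelial factor Grhl2 at -0.45 (edgeR adjusted p 0.325) in hypoplastic against control lungs. In treated against hypoplastic lungs 3 of 12 had an unadjusted p under 0.05, all higher, against 2% of all genes higher. These were Nkx2-1, Grhl2 (log2 fold change 0.35) and Etv5, a target of FGF signalling (0.46), with edgeR adjusted p of 0.859 or more. In treated against control lungs 0 of 12 had an unadjusted p under 0.05, where 324 of all 12966 genes were lower and 217 higher at such a p. Cebpa at -0.24, Cebpd at 0.40 and Etv5 at 0.17 had the smallest p of the 12.

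Of 8 other type II genes, 7 were lower in hypoplastic lungs, against 48.1% of all genes. Of the 8, 5 were lower at an unadjusted p under 0.05, against 5.69% of all genes, and the median log2 fold change was -0.37. Lgi3 was at 102, 200 and 128 CPM in control, 85.5, 63.9 and 79.6 CPM in hypoplastic, and 124, 90.4 and 111 CPM in treated libraries. Its hypoplastic libraries lay below all others, at -0.91 on the log2 scale (SE 0.234, edgeR adjusted p 0.317) from control. The tight junction gene Cldn18 was at -0.44 (edgeR adjusted p 0.317) and Acoxl, under 1 CPM throughout, at -1.76 (edgeR adjusted p 0.361). In treated against hypoplastic lungs the median was 0.19, with S100g at 0.96 (means of 0.734 and 0.380 CPM, edgeR adjusted p 0.895), Lgi3 at 0.51 and Cldn18 at 0.22 (edgeR adjusted p 0.901 each). In treated against control lungs the median was -0.29, and Acoxl at -1.96, Dram1 at -0.68 and Cldn18 at -0.22 had the smallest p (edgeR adjusted p 0.998 each).

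Of 10 lipid synthesis genes, 4 were lower and 2 higher in hypoplastic lungs at an unadjusted p under 0.05, against 5.69% of all genes lower and 6.67% higher, with a median log2 fold change of -0.21. Fasn, fatty acid synthase, was at 713, 1276 and 676 CPM in control and at 482, 551 and 529 CPM in hypoplastic libraries, without overlap (log2 fold change -0.77, SE 0.223, edgeR adjusted p 0.317). Acaca, acetyl-CoA carboxylase, was at -0.30 (edgeR adjusted p 0.331), whereas Chpt1, which joins choline to diacylglycerol, was at 0.57 (edgeR adjusted p 0.317). In treated against hypoplastic lungs the median was 0.03, and Elovl6 at -0.59, Scd at -1.0 and Gpam at 0.27 had the smallest p (edgeR adjusted p 0.826 to 0.901). In treated against control lungs Srebf1 at -0.28, Scd at -0.96 and Fasn at -0.44 did (edgeR adjusted p 0.998 each, median -0.17).

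The last lists held genes of lamellar bodies and secretion and genes of surfactant clearance. In hypoplastic against control lungs the medians were -0.02 over 10 and 0.24 over 6 genes. Rab3d, a secretory granule GTPase, was at -0.38 (edgeR adjusted p 0.325), Rab38, a lamellar body GTPase, at -0.46 (edgeR adjusted p 0.347) and Hps1 at -0.32 (edgeR adjusted p 0.486). Of 6 clearance genes, 0 had an unadjusted p under 0.05, against 5.69% of all genes lower and 6.67% higher. Csf2ra at 0.51, Pla2g15 at 0.26 and Csf2rb at 0.47 had the smallest p of these 6. In treated against hypoplastic lungs Lyst was at -0.31 (edgeR adjusted p 0.826), Hps1 at 0.22 and Adgrf5 at -0.10, and of the clearance genes Prdx6 was at -0.09, Csf2rb at 0.62 and Pparg at 0.20. In treated against control lungs Rab3d was at -0.32, Lyst at -0.22 and Rab38 at -0.34, and Csf2rb at 1.09, Prdx6 at -0.14 and Csf2ra at 0.37 (edgeR adjusted p 0.998 each).

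**Figure D4:**
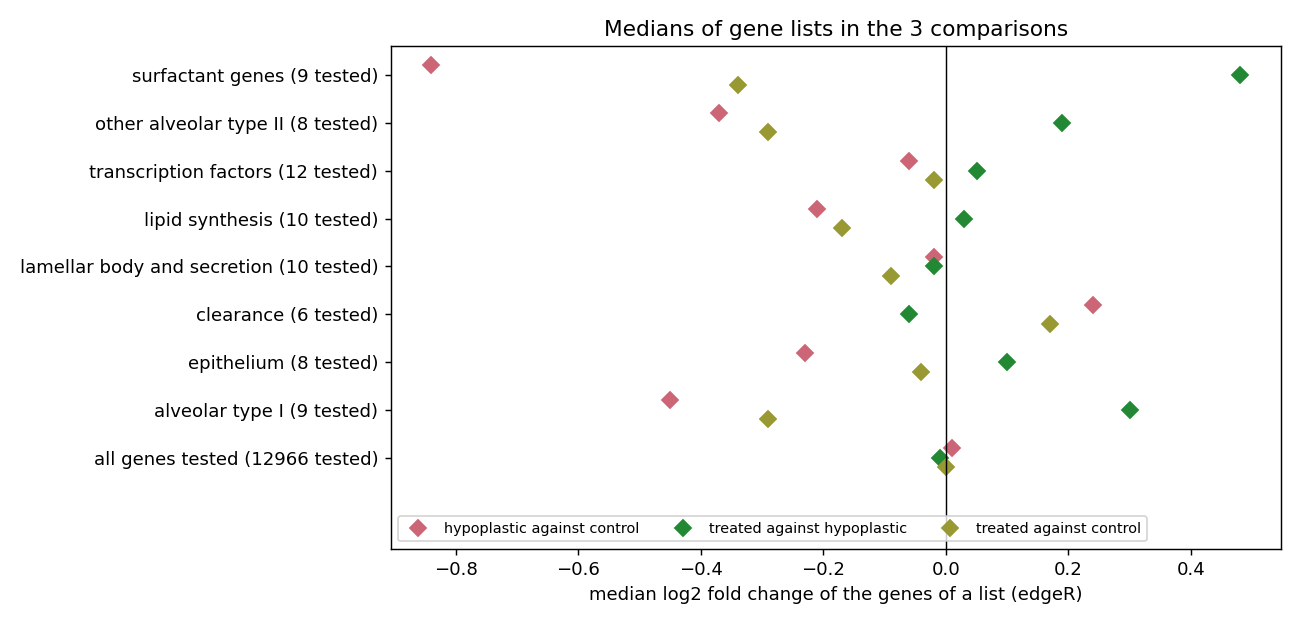
Median log2 fold change (x axis, edgeR) of the surfactant genes, of lists of related genes and of all genes tested, in the 3 comparisons, with the number of genes tested beside each name. The surfactant genes had medians of -0.84, 0.48 and -0.34, and all genes lay within 0.01 of 0.

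Markers of other cells moved with some of these values, and their part in the results was not tested. Over 8 general epithelial markers the median log2 fold change was -0.23 in hypoplastic against control lungs, and their summed level was 1878 to 2065 CPM in control, 1542 to 1952 CPM in hypoplastic and 1774 to 1937 CPM in treated libraries. Set against the mean log2 level of these 8 genes in each library, the median difference of the surfactant genes between hypoplastic and control lungs was -0.61, with 9 of 9 lower. On this scale only Sftpc, Lamp3 and Slc34a2 stayed below all controls. Sftpb, Lpcat1 and Ctsh, which had not overlapped before, now overlapped control, and Napsa was at -0.05. Between treated and hypoplastic lungs the median difference was 0.38, with 8 of 9 higher. Of 9 alveolar type I genes 7 were lower in hypoplastic lungs, against 48.1% of all genes, with a median of -0.45. Their summed level was highest in control library 2, at 2295 CPM, against 921 to 1408 CPM in the other 8. The summed level of 7 mesenchymal markers was lowest in control library 2, at 2184 CPM, and highest in hypoplastic library 2, at 15030 CPM. In hypoplastic library 2, 5 members had their lowest value of all 9 libraries. Most of that sum was collagen, with Col1a1 at 5816, Col1a2 at 3230 and Col3a1 at 5268 CPM. Pdgfra was also highest there, at 333 CPM. Mfap4 was at 281 CPM there, against 269 to 512 CPM in control, and Tcf21 at 21.8 CPM, against 22.3 to 31.3 CPM. The sum is thus mainly a collagen level. Summed heart muscle markers were 2.67 to 10.1 CPM in control, 139, 71.5 and 3.06 CPM in hypoplastic, and 2.51 to 5.52 CPM in treated libraries. Neutrophil markers summed to 6.60 to 12.9 CPM in control, 53.8 to 95.3 CPM in hypoplastic and 18.8 to 79.6 CPM in treated libraries, and no gene of these lists was at 0 in all libraries.

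Macrophage (6 of 6 higher, median log2 fold change 0.88), endothelial (median -0.06), club (-0.13), ciliated (-0.25) and blood markers (-0.48) were also read in hypoplastic against control lungs. Over all 12966 genes tested, 6733 were higher. None of the genes of these lists was called by edgeR.

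Among 11343 genes with a mean of at least 1 CPM, the 6 whose log2 CPM followed the mean standardised level of the members most closely over the 9 libraries were Abca17 (Pearson's r 0.992), Cpped1 (0.979), Nherf2 (0.979), Zdhhc3 (0.977), Zfp831 (0.974) and Scp2 (0.968). The mean of Abca17 was 18.5 CPM in control, 9.76 CPM in hypoplastic and 13.0 CPM in treated lungs. Within the 9 members r with that mean ran from 0.73 (Lpcat1) to 0.96 (Slc34a2). Each member is itself part of that mean, which raises its r, so these values are not comparable with those of the other genes. These r were picked as the highest of many over 9 libraries and describe likeness only.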

How the data were processed

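The authors deposited 1 table of estimated counts for 17465 genes, named by NCBI Gene ID, without normalization between libraries. The submitters' processing notes name DESeq2 and the build rn7, with no aligner, annotation or strand setting of the counting given in the sources used here. Symbols came from the RefSeq table of GRCr8 (99.1% of IDs matched), and no coordinates of the counts are printed. Counts were rounded and tested with edgeR 4.0.16 (glmQLFit with legacy=FALSE, glmQLFTest, TMM, filterByExpr by group) in R 4.3.3, with 9 libraries in 1 fit, 6 residual degrees of freedom and Benjamini-Hochberg adjustment over 12966 genes at 0.05. SE is the absolute log2 fold change divided by the square root of F. DESeq2 1.42.0 and limma voom 3.58.1 were alternatives. Correlations used log2 of CPM plus 0.5. Libraries of a group differed beyond counting error (chi-square per degree of freedom at least 132.1). edgeR was tested on simulated data. The members, lists, motifs and alternatives were chosen with earlier results of these data known. Named were all members, the 3 genes of smallest p in each related list (or up to 6 called), and the 6 genes of highest likeness. The setting of members against epithelial markers was added after the values were seen. Levels of different genes are not compared, since transcript lengths were not used here. Some listed genes were not analysed here.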

Additional observations from a re-analysis of the deposited data

How the results depend on the processing

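The median log2 fold change of the 9 surfactant genes kept its direction under all alternatives run in each comparison. With 1 library left out it ran from -0.9993 to -0.5083 in hypoplastic against control, 0.301 to 0.6175 in treated against hypoplastic and -0.5017 to -0.009549 in treated against control lungs, each with 0 members called by edgeR. DESeq2 called 4 members in hypoplastic against control lungs, and over all genes it called 195, 15 and 16 in the 3 comparisons, where edgeR called 1, 0 and 0. The cause was not tested. In hypoplastic against control lungs edgeR called 4 genes with only the 6 libraries compared, and with 1 library left out its counts ran from 0 to 45 there, 0 to 44 in treated against hypoplastic and 0 to 1 in treated against control lungs. No member was among these. With the sex covariate the medians were -0.85, 0.48 and -0.39.

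No label says that same-numbered lungs form pairs. Deviations from group means correlated at -0.37 to 0.31 in the 9 same-numbered pairs and at -0.53 to 0.50 in the 18 others. The replicate block gave 2 called genes between hypoplastic and control lungs, neither a member, and medians of the surfactant genes of -0.78, 0.45 and -0.32.

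In treated against control lungs, leaving out 1 library turned the direction of Sftpa1 (-0.32 to 0.3032), Sftpd (-0.75 to 0.08576) and Lpcat1 (-0.1077 to 0.24), none of them called. Depth did not limit the members, each with 2808 or more estimated counts in every library.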

Other observations

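The club cell gene Scgb3a1, a secretoglobin of the large airways, was at 30.8 CPM in hypoplastic library 1 and at 0.606 CPM or less in each of the other 8 libraries. The collagen gene Col1a1 was at 5816 CPM in hypoplastic library 2, against 599 to 1862 CPM in the other 8. These genes were picked after their values were seen, and were not tested.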
